A study of Danio rerio with 12 samples.

Results

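The proteasome is the protease that degrades ubiquitin-tagged proteins, and its subunit genes were followed here in whole zebrafish exposed for 48 h to benzo[a]pyrene (BaP), to diclofenac or to the mixture of both. The genes were chosen by name: every entry whose symbol begins with psma, psmb, psmc or psmd followed by a digit. That rule matched 74 of the 35497 entries of the authors' deposited table, where an entry is a gene identifier in 1 transcript class. The 74 entries carry 57 gene identifiers and 49 symbols, and 50 of them averaged at least 1 CPM (read counts scaled to a common library total), as did 21622 entries of the whole table. BaP is a polycyclic aromatic hydrocarbon formed in incomplete combustion, and diclofenac is a nonsteroidal anti-inflammatory drug. The study has 4 groups of 3 libraries, Control, BaP, diclofenac and the mixture, described in the labels as independent replicates, and the question of its design is how the mixture compares with each compound alone. Doses, vehicle, age, sex and strain of the fish were not given in the sources used here. Single libraries were not analysed here. The table gives 1 log2 fold change per treatment against Control with the 3 libraries of a group combined, so the spread between libraries enters only through the authors' test, and all 3 comparisons share the Control libraries.

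The core particle of the proteasome is a barrel of stacked rings, with the outer rings built from alpha subunits (psma genes) and the inner rings from beta subunits (psmb genes). Among the beta subunits, those encoded by psmb5, psmb6 and psmb7 carry the proteolytic sites. The regulatory particle caps the barrel. Its base holds a ring of ATPases (psmc genes) that unfold the substrate, and its other subunits (most psmd genes) bind ubiquitin chains, remove them or hold the lid together. In mammals interferon signalling induces the alternative catalytic subunits Psmb8, Psmb9 and Psmb10, which form the immunoproteasome, and the transcription factor Nrf1 (nfe2l1a and nfe2l1b in zebrafish) raises the constitutive subunit genes together when proteasome activity is low. Skeletal muscle depends on the ubiquitin and proteasome pathway for the turnover of its fibres.

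Of the 50 entries averaging at least 1 CPM, 10 were alpha subunits, 10 constitutive beta subunits, 10 base ATPases and 14 other regulatory subunits. A single immune subunit, psmb10, reached that level. Another 4 entries were regulatory particle chaperones with psmd symbols (psmd5, psmd9 and psmd10), which assist assembly and are not part of the finished complex. The remaining entry, psmc3ip, matches the name rule but encodes a meiotic recombination factor and no proteasome subunit. Of the 50, 47 are protein-coding entries and 3 are retained-intron entries of psma3, psmb2 and psmb7. No entry has the symbol psma7, which the RefSeq table (assembly GRCz12tu, used for names and gene order) gives as a synonym of psma8. Several symbols occur under more than 1 gene identifier (psma5, psmb5, psmb11a, psmc1a, psmc4, psmc6 and psmd10), and PSMD2 stands beside psmd2. For these, the authors' counting could have split reads between near-identical copies, so their separate values are uncertain.

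Most constitutive subunit entries lay slightly above Control with BaP, below Control with diclofenac and near Control with the mixture, but none passed the test against Control with any treatment. In the authors' deposited table the median log2 fold change of the 50 entries was 0.18 with BaP, -0.37 with diclofenac and 0.05 with the mixture. The medians of all 21622 entries tested were 0.02, -0.01 and 0.02 in the same order. With BaP 47 of the 50 entries had a positive fold change, against 52.7% of all entries tested. With diclofenac 44 of the 50 had a negative one, against 50.5% of all entries tested. With the mixture 31 of the 50 were positive, against 51.7% of all. These 3 sets of values use the same Control libraries, and entries of one complex are not independent replicates.

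Calls were made on the authors' likelihood ratio test at a Benjamini-Hochberg adjusted p under 0.05, adjusted over all 21622 entries. With BaP 0 of the 50 entries were called by that test, where 0.148% of all entries were called, and 1 entry, psmb10, had an unadjusted p under 0.05, which is 2% against 3.98% of all entries. With diclofenac 0 of the 50 were called, where 16.2% of all entries were. The count at an unadjusted p under 0.05 with diclofenac was 14, or 28% of the members, all with negative fold changes. In either direction the share was 27.6% of all entries tested. Lower at such a p were 2973 of the 21622 entries. With the mixture 0 of the 50 were called, where 14.8% of all entries were, and 0 had an unadjusted p under 0.05, against 26.8% of all entries. The standard errors implied by the authors' fold changes and likelihood ratios had a median of 0.26 on the log2 scale with diclofenac.

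**Figure D1:**
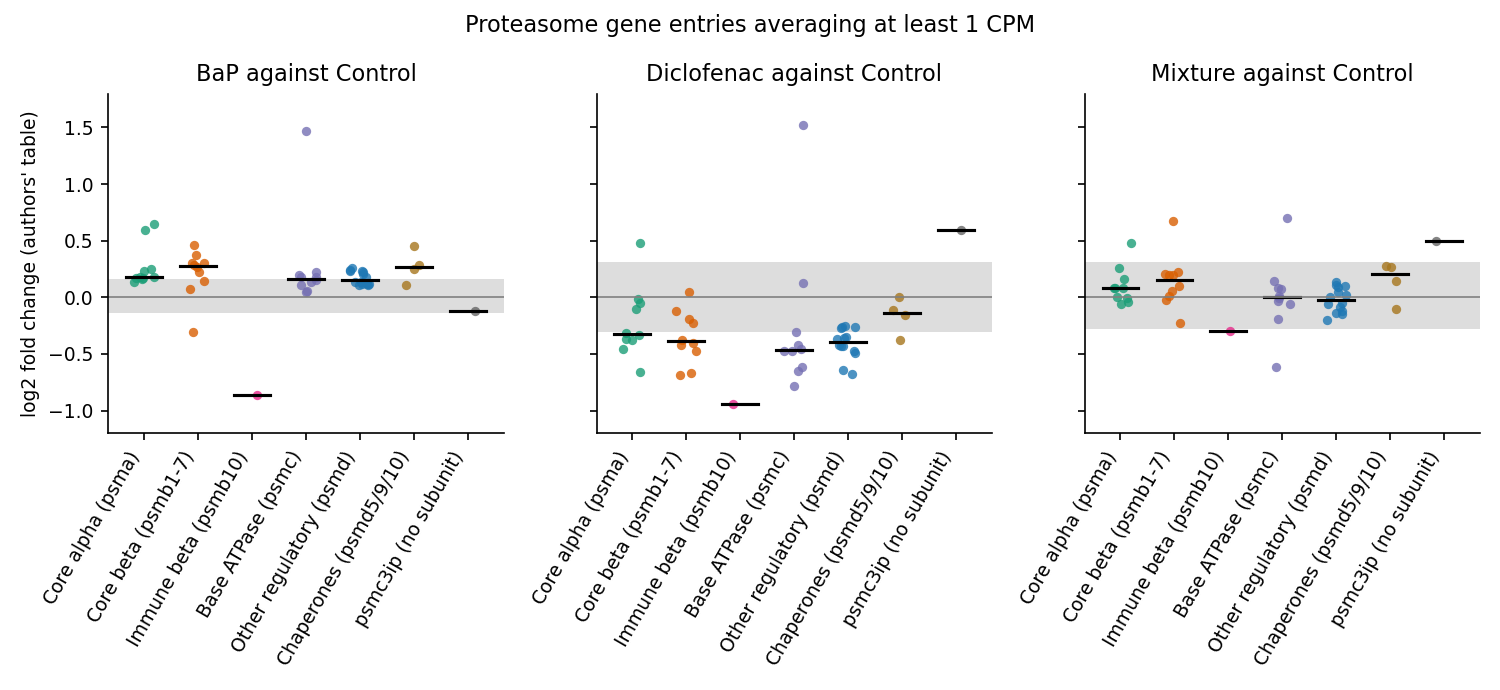
Log2 fold change against Control (vertical axis) of the 50 proteasome gene entries averaging at least 1 CPM, 1 point per entry, by role in the complex, with 1 panel per treatment. Bars mark the group medians, and the grey band spans the middle 50% of all 21622 entries tested. The medians of the 4 constitutive groups lie near or above the upper edge of the band with BaP, below its lower edge with diclofenac and inside it with the mixture, and single entries lie on either side of the edges. In each panel 0 of the 50 entries were called.

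Levels per group, given below in CPM, were computed from the authors' deposited table by taking its average as the mean of the 4 groups and spreading it by the 3 fold changes. They carry no error of their own, and levels are set side by side only within a gene because CPM does not account for transcript length. Summed over the 50 entries, the implied level was 3604 CPM in Control, 4117 with BaP, 2761 with diclofenac and 3688 with the mixture. In RNA from whole bodies, fewer cells expressing a gene and less RNA of it per cell cannot be told apart.

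The 10 alpha subunit entries had a median log2 fold change of 0.18 with BaP, -0.32 with diclofenac and 0.08 with the mixture in the authors' deposited table. With BaP all 10 were positive, from 0.14 to 0.65. With diclofenac 9 of 10 were negative, from -0.66 to -0.02, and the exception was psma6l, an alpha 6 like gene near the lower limit of 1 CPM, at 0.48. The psma6a entry had the smallest p of the group. Its implied levels were 58.5 CPM in Control, 69.4 with BaP, 37.0 with diclofenac and 56.2 with the mixture, so diclofenac was the low group and Control and the mixture lay close together. The authors' deposited table gave it a log2 fold change with diclofenac of -0.66 with an implied standard error of 0.30 (unadjusted p = 0.026, Benjamini-Hochberg adjusted p = 0.117).

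The duplicate copy psma6b gave a flatter series, at 33.9 CPM in Control, 38.0 with BaP, 32.7 with diclofenac and 35.9 with the mixture. Its fold change with diclofenac was -0.05 (95% interval -0.47 to 0.36) in the authors' deposited table, against -0.66 (-1.24 to -0.08) for psma6a. Both genes encode the alpha 6 subunit, and the difference between these copies was not tested. The psma8 entry, second in the group by p, stood at 146 CPM in Control, 160 with BaP, 112 with diclofenac and 154 with the mixture. Its fold change with diclofenac was -0.38 with an implied standard error of 0.23 (unadjusted p = 0.0997) in the authors' deposited table. The entries psma1 and psma2 lay closest to Control with diclofenac among the other protein-coding alpha subunits, at -0.10 and -0.02, and psma3, psma4 and psma5 lay between -0.46 and -0.32. The retained-intron entry of psma3 had the highest BaP value of the group, 0.65, with an interval that included 0.

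The 10 constitutive beta entries had the highest BaP median of the 4 constitutive groups, 0.28, and medians of -0.39 with diclofenac and 0.15 with the mixture in the authors' deposited table. With BaP 9 of 10 were positive and with diclofenac 9 of 10 were negative. The smallest p belonged to psmb3, a structural subunit without a proteolytic site. Its implied levels were 89.5 CPM in Control, 98.8 with BaP, 56.3 with diclofenac and 76.4 with the mixture, so here the mixture lay between Control and diclofenac. For psmb3 the authors' deposited table gave a log2 fold change of -0.67 with diclofenac, with an implied standard error of 0.27 (unadjusted p = 0.013, Benjamini-Hochberg adjusted p = 0.070).

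The proteolytic sites belong to psmb5, psmb6 and psmb7. The psmb5 subunit cleaves after hydrophobic residues, and its entry with the higher level (ENSDARG00000075445) stood at 78.8 CPM in Control, 94.97 with BaP, 60.7 with diclofenac and 77.6 with the mixture. The other psmb5 entry (ENSDARG00000111880) stood at 49.4, 51.8, 30.6 and 51.4 CPM in the same order. For this second identifier the authors' deposited table gave -0.69 with diclofenac (implied standard error 0.28, unadjusted p = 0.014, Benjamini-Hochberg adjusted p = 0.075), and for the first -0.38 (0.26, unadjusted p = 0.155). Diclofenac was the low group for both identifiers. BaP was the high group for the first. For the second, BaP and the mixture lay together, with a mixture value minus BaP value of -0.01 (implied standard error 0.28).

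The psmb6 subunit, which cleaves after acidic residues, stood at 64.0 CPM in Control, 83.0 with BaP, 56.0 with diclofenac and 73.4 with the mixture. Its BaP fold change of 0.38 (95% interval -0.09 to 0.85) was the largest among protein-coding beta entries in the authors' deposited table. The psmb7 subunit, which cleaves after basic residues, stood at 119, 147, 102 and 138 CPM in the same order. For psmb7 the fold changes were 0.31, -0.22 and 0.22 with BaP, diclofenac and the mixture, each with an implied standard error of 0.28, in the authors' deposited table. Among the other protein-coding beta entries the values with diclofenac ran from -0.42 for psmb1 to -0.12 for psmb2, with psmb4 at -0.40. The retained-intron entry of psmb7 was too imprecise to place, with an implied standard error of 1.16, and that of psmb2 lay at 0.04 with diclofenac.

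The immune subunit psmb10 had negative values with both single compounds. Its implied level was 6.56 CPM in Control, 3.60 with BaP, 3.41 with diclofenac and 5.33 with the mixture, so both single compounds were low and the mixture lay between them and Control. In the authors' deposited table its log2 fold change was -0.86 with BaP (95% interval -1.61 to -0.12, unadjusted p = 0.022, Benjamini-Hochberg adjusted p = 1.0). With diclofenac it was -0.94 (-1.70 to -0.19, unadjusted p = 0.014, adjusted p = 0.075 by the same method), and with the mixture -0.30 (-1.03 to 0.43). It was the member with the lowest BaP value, where all but 3 entries were positive. The interaction, which is the mixture value minus both single values, was 1.51 for psmb10 with an implied standard error of 0.54 (unadjusted p = 0.0056, Benjamini-Hochberg adjusted p = 0.706), so it did not pass. A second entry of psmb10, a processed transcript under 1 CPM, had fold changes of 1.09, 1.16 and 0.35 with BaP, diclofenac and the mixture, by the authors' deposited table, none with an unadjusted p under 0.05.

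The other immune subunit genes averaged too low to enter the comparisons, and the cause was not tested. Of the 9 immune and thymic entries 8 averaged under 1 CPM, and both psmb11a entries lay at the floor of the average, a log2 CPM of -2.79. The catalytic genes psmb8a and psmb9a averaged -2.68 and -2.21 on the log2 CPM scale. In RefSeq's gene order psmb13a, psmb8a, psmb12 and psmb9a are consecutive protein-coding genes, with mhc1uba before them and tap2a, a transporter that loads peptides for MHC class I, after them. All 4 of these neighbours averaged under 1 CPM, whereas psmb10 lies elsewhere. None of the 8 low immune entries had an unadjusted p under 0.05 with any treatment.

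The 10 base ATPase entries had medians of 0.16 with BaP, -0.46 with diclofenac and 0.00 with the mixture in the authors' deposited table, the lowest diclofenac median of the 4 constitutive groups. With diclofenac 8 of 10 were negative, against 50.5% of all entries tested, and 4, or 40%, had an unadjusted p under 0.05. All 4 were lower. In either direction that p was reached by 27.6% of all entries and by 30.8% of all entries averaging at least 5 CPM. Lower at that p were 2973 of the 21622 entries and 2279 of the 14795 averaging at least 5 CPM. These 4 entries include psmc6 under more than 1 gene identifier, so they stand for fewer than 4 genes. The ATPase psmc1a (ENSDARG00000030537) had the smallest p. Its implied levels were 116 CPM in Control, 125 with BaP, 67.4 with diclofenac and 111 with the mixture. Its log2 fold change with diclofenac, by the authors' deposited table, was -0.78 with an implied standard error of 0.31 (unadjusted p = 0.011, Benjamini-Hochberg adjusted p = 0.063). Diclofenac alone was the low group, and the mixture lay at -0.06.

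The second psmc1a identifier (ENSDARG00000112404) went the other way, with 8.04 CPM in Control, 22.2 with BaP, 23.1 with diclofenac and 13.1 with the mixture. All 3 treatments were above Control for this entry, but its intervals were wide. In the authors' deposited table it had 1.47 with BaP (95% interval -0.13 to 3.06) and 1.53 with diclofenac (-0.07 to 3.12). The duplicate gene psmc1b resembled the first psmc1a entry at smaller size, with 55.6, 65.0, 40.0 and 56.0 CPM in the group order. For psmc1b the fold change with diclofenac was -0.47 with an implied standard error of 0.26 (unadjusted p = 0.073) in the authors' deposited table.

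The ATPase psmc6 (ENSDARG00000037038) stood at 83.0 CPM in Control, 93.8 with BaP, 54.1 with diclofenac and 81.2 with the mixture. Its fold change with diclofenac was -0.62 with an implied standard error of 0.26 (unadjusted p = 0.018, Benjamini-Hochberg adjusted p = 0.090) in the authors' deposited table. A second psmc6 identifier lay at -0.65 at a level of 6.80 CPM in Control. The entries psmc2, psmc3 and psmc5 and the main psmc4 entry lay between -0.47 and -0.31 with diclofenac in the authors' deposited table. The second psmc4 identifier was the lowest member with the mixture, at -0.61 (95% interval -1.37 to 0.14), where the main psmc4 entry had 0.14.

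Among the constitutive groups, the 14 other regulatory subunits had the smallest standard deviation across entries with each treatment. The range between their quartiles was the narrowest only with diclofenac, at 0.17. With BaP it was 0.11, against 0.07 for the alpha subunits and 0.08 for the base ATPases. The standard deviations of those groups include outlying BaP values, such as 0.65 for the retained-intron psma3 entry and 1.47 for the second psmc1a identifier. By the authors' deposited table all 14 were positive with BaP, from 0.11 to 0.26, and all 14 were negative with diclofenac, from -0.67 to -0.25. The mixture split them into 7 positive and 7 negative, from -0.20 to 0.14. Their standard deviation across entries was 0.06 with BaP and 0.13 with diclofenac, below the median implied standard error of a single entry, 0.22. With diclofenac 6 of the 14, or 42.9%, had an unadjusted p under 0.05, and none passed adjustment. In either direction the share was 27.6% of all entries and 30.8% of all entries averaging at least 5 CPM. Lower at such a p were 2973 of the 21622 entries and 2279 of the 14795 averaging at least 5 CPM.

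The ubiquitin receptor gene psmd4a came nearest to a call. Its implied levels were 53.7 CPM in Control, 61.8 with BaP, 33.7 with diclofenac and 46.7 with the mixture. Both groups that received diclofenac had implied levels below Control, but the mixture value of -0.20 had a 95% interval of -0.71 to 0.30. With diclofenac its log2 fold change was, by the authors' deposited table, -0.67 with an implied standard error of 0.26 (unadjusted p = 0.0096, Benjamini-Hochberg adjusted p = 0.057). When the adjustment was made only over entries averaging at least 5 CPM, its adjusted p was 0.049 by the same method. The copy psmd4b stood at 63.8, 68.8, 53.0 and 68.7 CPM in the group order. For psmd4b the fold change with diclofenac was -0.27 (95% interval -0.70 to 0.17) in the authors' deposited table, and the difference between both copies was not tested.

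The lid subunit gene psmd8 stood at 120 CPM in Control, 130 with BaP, 76.6 with diclofenac and 109 with the mixture. In the authors' deposited table its fold change with diclofenac was -0.65 with an implied standard error of 0.28 (unadjusted p = 0.020, Benjamini-Hochberg adjusted p = 0.097). The lid subunit copies psmd11a and psmd11b lay at -0.26 and -0.49 with diclofenac, with intervals of -0.63 to 0.12 and -0.93 to -0.05. Among the rest, psmd1 and psmd2 encode the scaffold subunits of the base and psmd14 encodes the deubiquitinase of the lid. Their diclofenac values in the authors' deposited table were -0.47 for psmd1, -0.25 for psmd2, -0.43 for the separate PSMD2 entry and -0.43 for psmd14. The remaining lid subunits psmd3, psmd6, psmd7, psmd12 and psmd13 lay between -0.42 and -0.27.

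The chaperone entries lay closer to Control than the subunits with diclofenac, at a median of -0.14, and had medians of 0.27 with BaP and 0.21 with the mixture in the authors' deposited table. For psmd5 the implied levels were 19.0 CPM in Control, 23.2 with BaP, 17.1 with diclofenac and 21.0 with the mixture. Its BaP value, with the smallest p of the 3, was 0.29 with an implied standard error of 0.22 (unadjusted p = 0.189), by the authors' deposited table. The psmd10 entry with the smaller p (ENSDARG00000015628) stood at 5.39, 6.41, 4.16 and 5.02 CPM in the same order, and its fold change with diclofenac was -0.37 (95% interval -0.94 to 0.19, unadjusted p = 0.193). The psmd9 entry was at 0.00 with diclofenac. None of the 4 had an unadjusted p under 0.05 with any treatment. The recombination factor gene psmc3ip, matched by name alone, lay opposite to the subunits, with 4.91 CPM in Control, 4.50 with BaP, 7.42 with diclofenac and 6.91 with the mixture. Its fold change with diclofenac was 0.60 with an implied standard error of 0.33 (unadjusted p = 0.069) in the authors' deposited table.

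**Figure D2:**
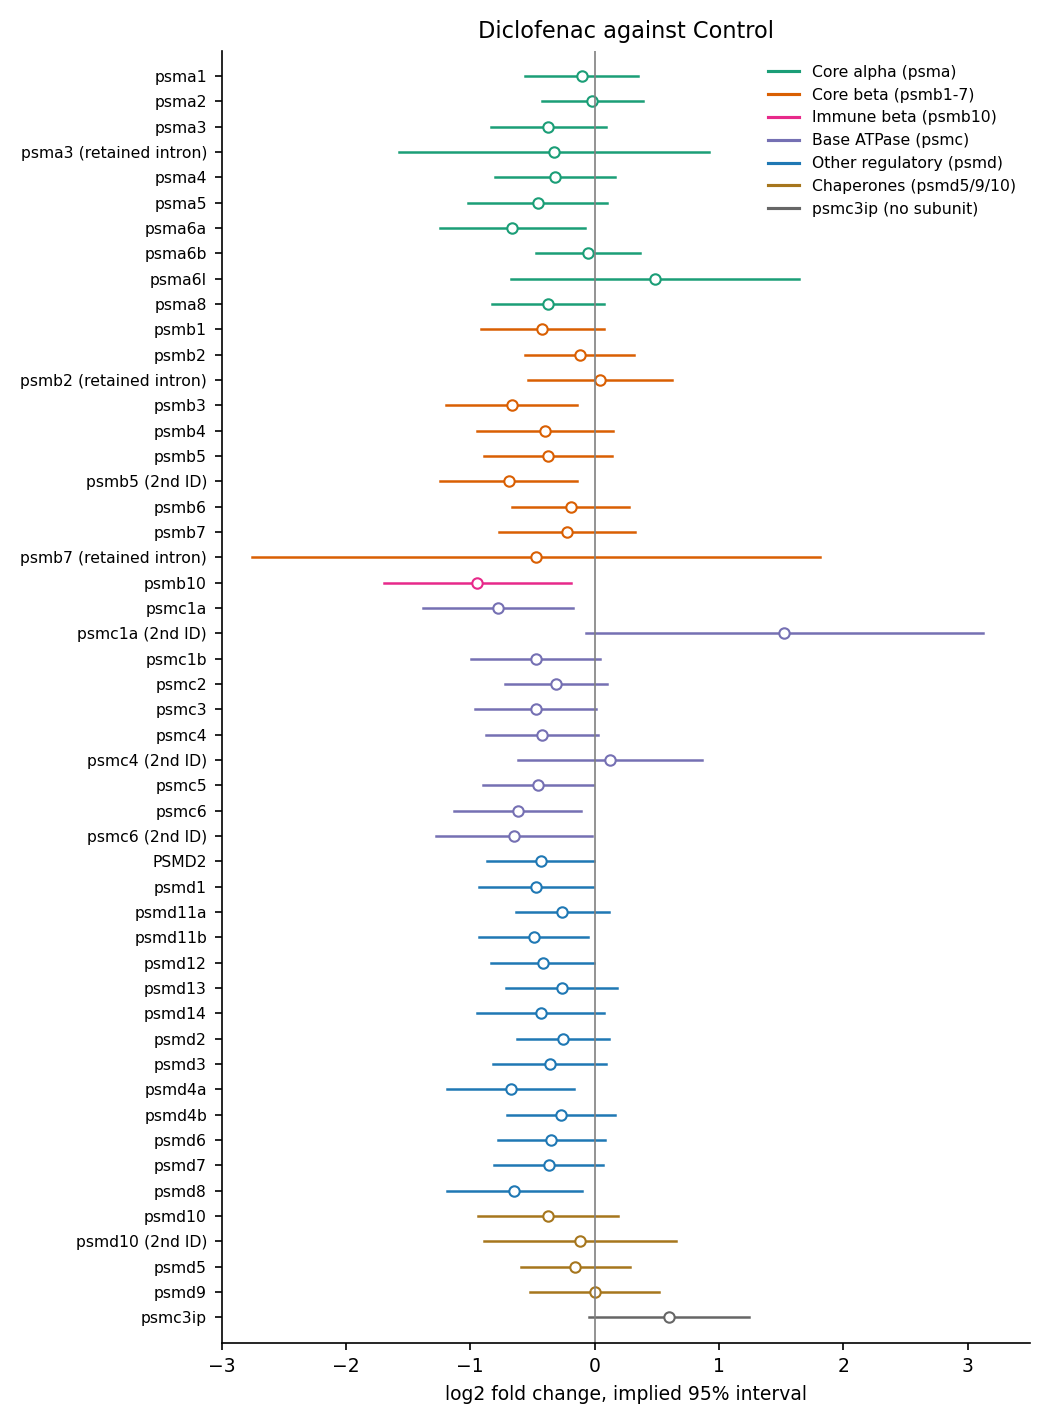
Log2 fold change with diclofenac against Control (horizontal axis) for each of the 50 entries, with the 95% interval implied by the authors' likelihood ratio, coloured by role. Of the 50 points 44 lie left of 0, and 14 intervals end below 0 at an unadjusted p under 0.05. All points are open because 0 entries passed the adjusted test.

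The direct comparison of diclofenac with BaP, which does not use Control, was added after seeing that these groups lay on either side of it. It was made by an approximate Wald test on the variance implied by the authors' deposited table, adjusted over all 21622 entries by the Benjamini-Hochberg method. The adjustment made no allowance for this choice of comparison, so its p-values may be too small. Of the 50 entries 14, or 28%, were lower with diclofenac than with BaP at an adjusted p under 0.05 and 0 were higher. Among all entries tested 19.1% passed in either direction and 9.63% were lower with diclofenac. Among all entries averaging at least 5 CPM, 22.5% passed in either direction. At an unadjusted p under 0.05, 33 of the 50 were lower and 1, psmc3ip, was higher, together 68% of the members. In either direction the share was 30.6% of all entries and 34.4% of all entries averaging at least 5 CPM. The median difference was -0.55 over the 50 entries and -0.01 over all entries tested. Of the 50 differences 48 were negative, against 50.8% of all entries tested.

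The 14 entries that passed came from all 4 constitutive groups. They were 1 alpha subunit (psma6a), 3 beta subunits (psmb1, psmb3 and the second psmb5 identifier), 4 ATPases (psmc1a, psmc1b, psmc5 and psmc6) and 6 other regulatory subunits (psmd1, PSMD2, psmd4a, psmd6, psmd8 and psmd11b). The largest of these differences was that of psma6a, -0.91 with an implied standard error of 0.30 (Wald test, Benjamini-Hochberg adjusted p = 0.017). The smallest adjusted p was that of psmd4a, 0.0070 by the same test, at a difference of -0.88 with an implied standard error of 0.26. The smallest difference among the 14 was that of psmd6, -0.58 (adjusted p = 0.044, Wald test). Of the catalytic genes, the first psmb5 identifier (-0.65, adjusted p = 0.068), psmb6 (-0.57, adjusted p = 0.080) and psmb7 (-0.53, adjusted p = 0.178) did not pass the same Wald test.

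Between copies, the 95% interval of the difference ran from -0.63 to 0.20 for psma6b and from -1.49 to -0.33 for psma6a, which did pass. The immune subunit psmb10 had a difference of -0.08 (-0.83 to 0.68). No difference among the 14 reached 2-fold, and none passed when the adjustment was made by the Benjamini-Yekutieli method, which allows for any dependence between tests. With all entries of the table in the adjustment, 9 of the 14 passed.

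**Figure D3:**
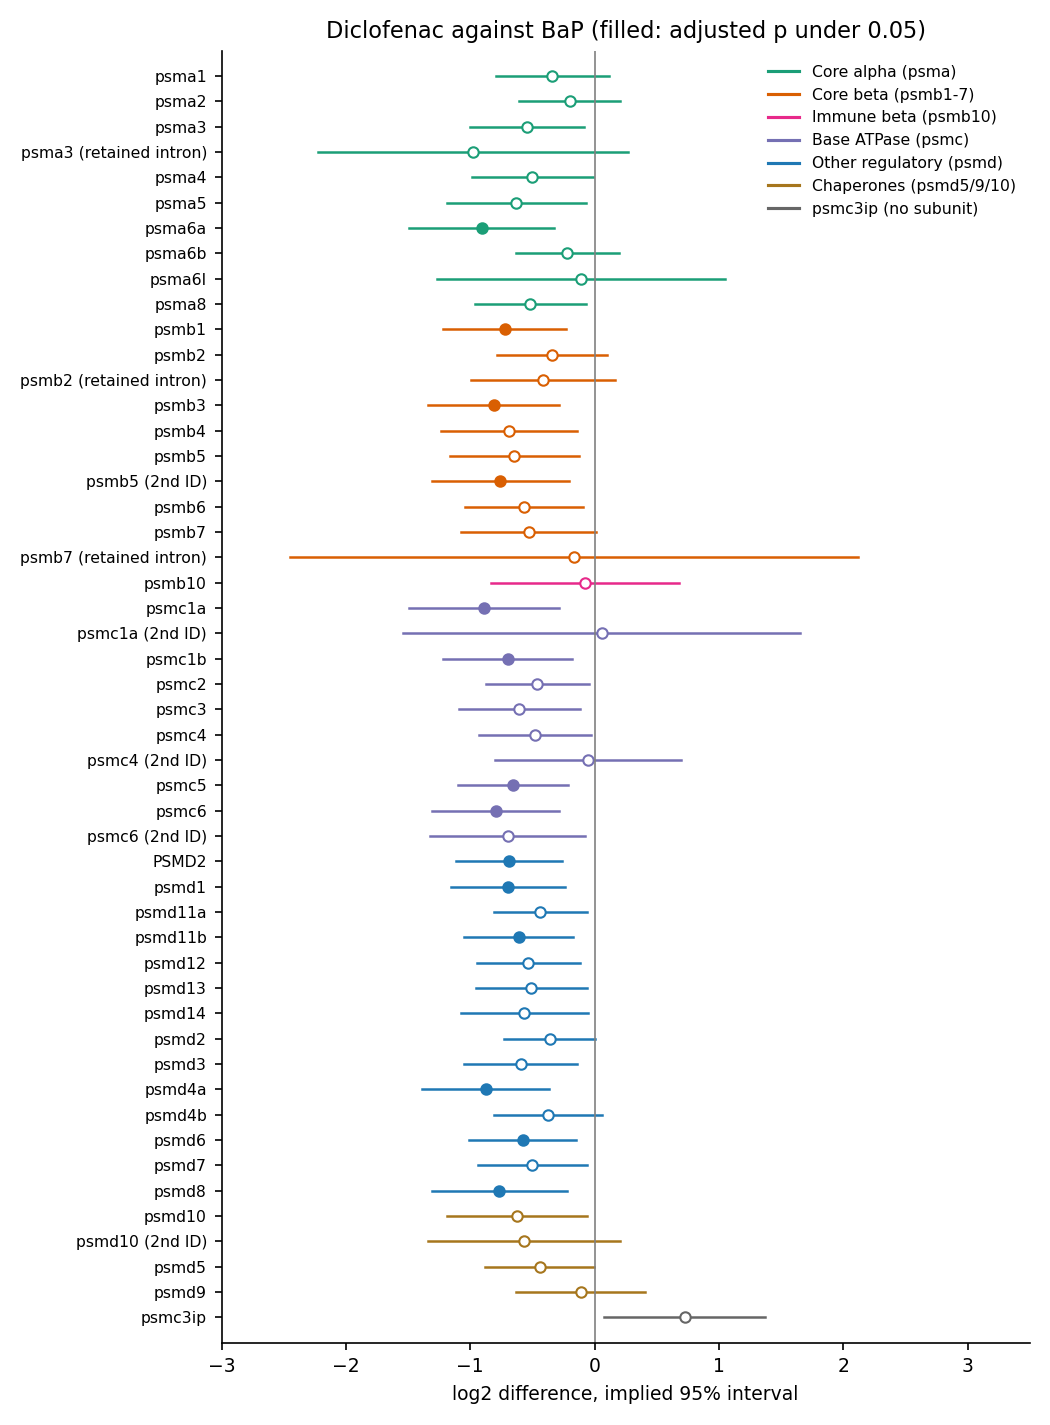
Log2 difference between diclofenac and BaP (horizontal axis) for each of the 50 entries, with implied 95% intervals, coloured by role. Filled points mark the 14 entries with an adjusted p under 0.05 by the approximate Wald test, all of them below 0, and the points right of 0 are psmc3ip and the second psmc1a identifier.

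Set against the compounds alone, the mixture values gave no call. Against diclofenac the mixture was higher in 46 of the 50 entries, against 52.6% of all entries tested. The median difference was 0.39, where all entries tested had 0.02. By the approximate Wald test 0 of the 50 passed, where 0.365% of all entries did. The count at an unadjusted p under 0.05 was 11, or 22%, all higher with the mixture. In either direction the share was 7.35% of all entries, and 911 of the 21622 were higher at such a p. The smallest adjusted p was 0.376 for the second psmb5 identifier, at a difference of 0.75 with an implied standard error of 0.28. Other entries at an unadjusted p under 0.05 included psmc1a at 0.72, psma6a at 0.60, psmc6 at 0.59 and psmc4 at 0.57.

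Against BaP the mixture was lower in 44 of the 50 entries, against 48.5% of all entries tested. The median difference was -0.18, where all entries tested had 0.01. By the Wald test 0 of the 50 passed, where 16.4% of all entries did. An unadjusted p under 0.05 was found for 1 entry, the second psmc4 identifier, which is 2% against 27.7% of all entries. For the interaction 0 of the 50 passed, where 0.0462% of all entries did. The unadjusted p was under 0.05 for 2 entries, psmb10 at 1.51 and the second psmc1a identifier at -2.29. That is 4% of the members, close to the 4.53% of all entries tested. The median interaction was 0.17 over the 50 entries and 0.02 over all entries tested, with a median implied standard error of 0.36 per entry.

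**Figure D4:**
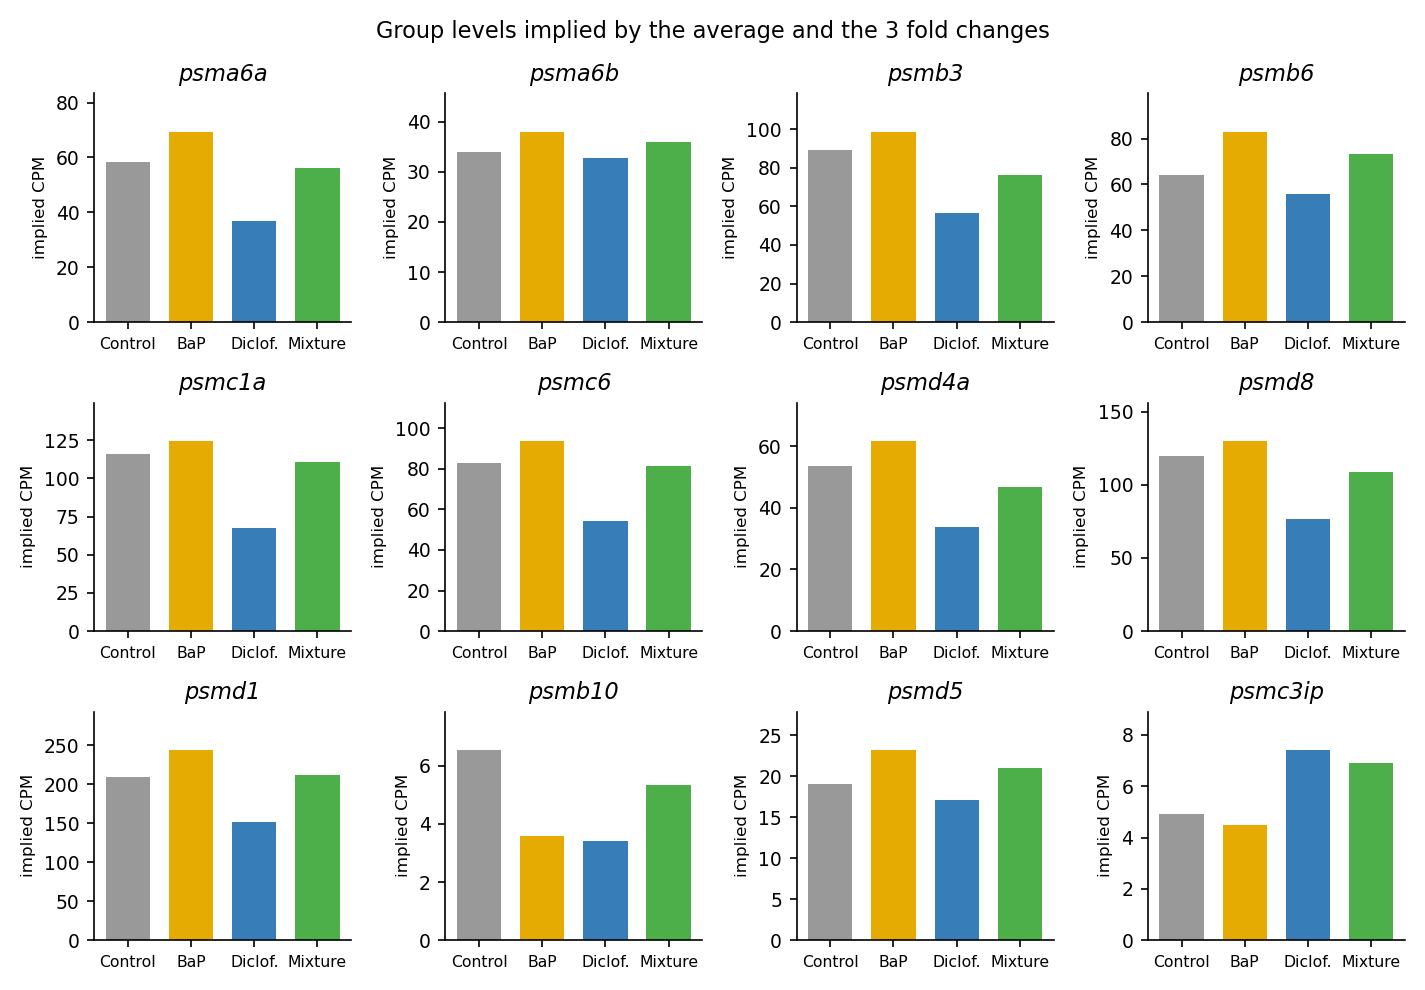
Implied CPM (vertical axis, starting at 0, scaled per gene) in Control, BaP, diclofenac and the mixture for 12 of the entries. Bars are group levels computed from the authors' average and fold changes and carry no error. For all entries shown except psmb10 and psmc3ip the diclofenac bar is the lowest and the BaP bar the highest, with differences of unequal size. The psmb10 bars are low with both single compounds, and psmc3ip is highest with diclofenac.

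Markers of other cell types moved between the same groups. Of 8 skeletal muscle markers measured, 7 fell with diclofenac and 6 with the mixture at a Benjamini-Hochberg adjusted p under 0.05, and 0 passed the authors' likelihood ratio test with BaP, where 0 also had an unadjusted p under 0.05. Their median log2 fold changes were 0.25 with BaP, -1.12 with diclofenac and -0.86 with the mixture in the authors' deposited table. Their summed implied level was 45582 CPM in Control, 54300 with BaP, 20856 with diclofenac and 28040 with the mixture. Between diclofenac and BaP, 7 of the 8 were lower with diclofenac, at a median difference of -1.38. With the mixture the muscle marker median lay well below 0, where the proteasome entries had a median of 0.05. Set against diclofenac, the mixture was higher by a median of 0.43 in the muscle markers and 0.39 in the proteasome entries. Against BaP the mixture medians were -1.09 and -0.18 in the same order. Of the 8 muscle markers 1 was higher with the mixture than with diclofenac at an adjusted p under 0.05 by the Wald test. The markers myhz2 and ttn.1 had lower fold changes with the mixture than with diclofenac.

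Of 8 leukocyte markers measured, 5 rose with diclofenac and 1, coro1a, rose with the mixture, with summed levels of 113 CPM in Control, 123 with BaP, 157 with diclofenac and 136 with the mixture. The leukocyte markers cd74a and cd74b averaged under 1 CPM. Of 4 erythrocyte markers 3 rose with the mixture. Of the list of oocyte and ovary markers only ddx4 and zp3b were measured, and dazl, zp2.1, buc and zp3 averaged under 1 CPM. Of these 2, ddx4 rose with diclofenac and zp3b lay at 0.25 (likelihood ratio test, unadjusted p = 0.564), so they are no measure of ovary content. The part of the cellular makeup of the samples in the proteasome values was not tested.

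**Figure D5:**
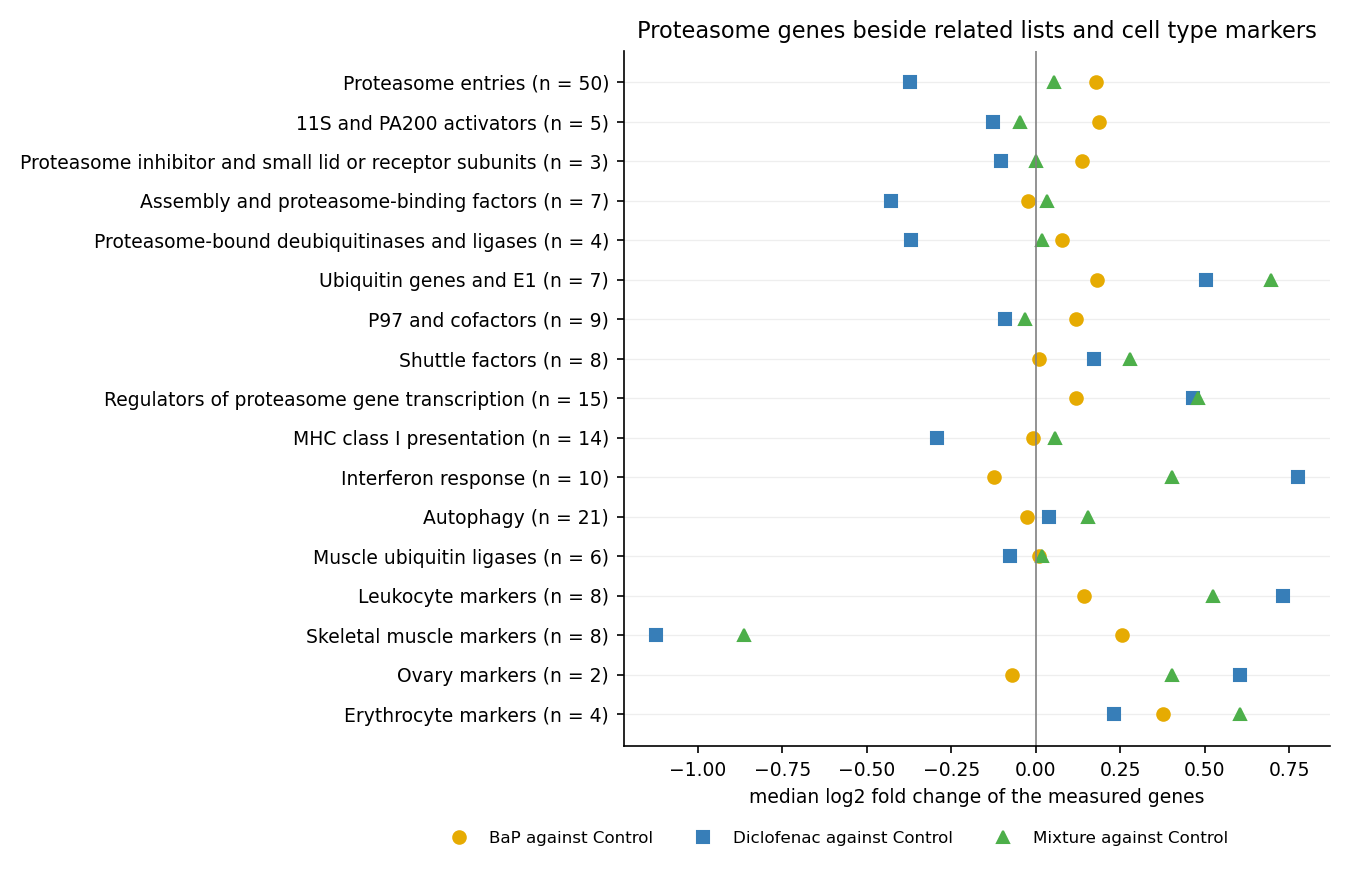
Median log2 fold change against Control (horizontal axis) of the 50 proteasome entries and of 16 related gene lists, 1 symbol per row for each treatment, with the number of measured genes in brackets. Diclofenac medians lie left of 0 for the proteasome entries, the assembly and proteasome-binding factors and the muscle markers. They also lie left of 0 for the activators, the inhibitor and small subunits, and the deubiquitinases and ligases. The same holds for p97 and cofactors, MHC class I presentation and the muscle ubiquitin ligases. All other lists, among them the transcriptional regulators, the interferon response and the leukocyte markers, lie right of 0.

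Genes that work beside the proteasome were read from related lists. Among all entries tested, 8.52% rose and 7.64% fell with diclofenac, 8.12% rose and 6.67% fell with the mixture, and 0.116% rose with BaP at an adjusted p under 0.05. Of 5 activator genes 1 fell with diclofenac, psme4b, which encodes an ATP-independent activator, at -0.59 (implied standard error 0.15, Benjamini-Hochberg adjusted p = 0.0014) in the authors' deposited table. With the mixture psme4b fell by 0.53 and psme4a also fell, while psme1, a subunit of the interferon-inducible activator, rose by 1.18 (adjusted p = 0.021 by the likelihood ratio test). The BaP value of psme1 was larger, 1.42 (likelihood ratio test, unadjusted p = 0.00018, Benjamini-Hochberg adjusted p = 0.084). Its partner psme2 had 1.11 with BaP and 0.81 with the mixture by the authors' deposited table, neither past adjustment. Both genes lay near the lower limit of 1 CPM, with averages of 2.35 CPM for psme1 and 2.48 CPM for psme2. Of 7 genes for assembly chaperones and other proteasome-binding factors, with ublcp1 and UBLCP1 counted apart, 2 fell with diclofenac. They were pomp, the maturation factor of the core particle, at -0.69 (Benjamini-Hochberg adjusted p = 0.045), and ecpas, a scaffold that binds proteasomes, at -0.43 (adjusted p = 0.023). The other chaperone genes of this list did not pass, and lay on both sides of 0 with diclofenac, with psmg1 at -0.46, psmg3 at 0.21 and psmg2 at 0.34 by the authors' deposited table. Of the inhibitor gene psmf1 and the small subunit genes sem1 and adrm1, 0 passed the likelihood ratio test with any treatment, and 0 had an unadjusted p under 0.05. Of 4 proteasome-bound deubiquitinase and ligase genes 0 passed, and 1, the ligase gene ube3a, had an unadjusted p under 0.05 with diclofenac, at -0.34.

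Ubiquitin genes supply the tag that the proteasome reads. Of 7 ubiquitin and E1 enzyme genes 2 rose with the mixture, the polyubiquitin genes ubb at 1.46 (Benjamini-Hochberg adjusted p = 0.0084) and UBB at 1.21 (adjusted p = 0.0090) in the authors' deposited table. The symbols ubb and UBB have separate gene identifiers and were counted apart. Whether reads were split between them was not tested, so the 2 rises may be 1 signal. With diclofenac UBA6, which activates ubiquitin, fell by 0.53. Of 9 genes of the segregase vcp and its cofactors 1 fell with diclofenac, nsfl1c at -0.86 (Benjamini-Hochberg adjusted p = 0.0053), and vcp itself had -0.65 (adjusted p = 0.055). Of 8 shuttle factor genes, which bring ubiquitinated or misfolded proteins to the proteasome, 2 rose with diclofenac and 2 with the mixture. Here the log2 values of zfand2a were 0.65 and 1.11 and those of rad23aa 0.48 and 0.60, by the authors' deposited table.

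Several regulators of proteasome gene transcription rose with diclofenac and with the mixture. Of 15 such genes 1 rose with BaP, 8 with diclofenac and 7 with the mixture, and none fell. The gene nfe2l2b, one of the zebrafish copies of the oxidative stress factor Nrf2, rose by 1.92, 2.04 and 3.04 with BaP, diclofenac and the mixture in the authors' deposited table. The cytokine signal transducer stat3 rose by 1.75 with diclofenac and 1.37 with the mixture and lay at -0.22 with BaP. The Nrf1 gene nfe2l1a rose by 1.37 with diclofenac and 1.44 with the mixture in the same table, and its copy nfe2l1b rose by 0.52 with diclofenac. The 8 that rose with diclofenac include keap1a at 0.61 and keap1b at 0.47, whose products restrain Nrf2. The list therefore holds genes that act in opposite directions, and its diclofenac median of 0.47 is no measure of activation. The subunit entries had a median of -0.37 with diclofenac.

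Interferon response and MHC class I genes were measured beside psmb10. Of 10 interferon response genes 5 rose with diclofenac and 3 with the mixture, among them the transcription factor irf9 at 2.21 and 2.25 and irf1b at 2.03 and 2.76 in the authors' deposited table. The interferon-induced genes mxa and mxc and the signal transducer stat1a did not pass with any treatment, at -0.31, -0.10 and -0.04 with diclofenac. Among 7 further listed genes averaging under 1 CPM were isg15, rsad2, mxb and ifng1. Of 14 genes of MHC class I presentation 3 rose and 1 fell with diclofenac, with the peptide transporter gene tap2t at 1.28 and the chaperone gene calr at -0.81. Autophagy is the other main degradation route, and of its 21 measured genes 4 rose with diclofenac, 3 rose with the mixture and 1 fell with the mixture. The receptor gene sqstm1, which delivers ubiquitinated cargo to autophagosomes, had log2 values of 1.60 and 1.91, by the authors' deposited table. Of 6 muscle ubiquitin ligases fbxo32 rose by 1.07 with diclofenac and 1.25 with the mixture, and trim63b fell by 0.65 with diclofenac.

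The genes outside the list whose 3 fold changes lay nearest to the members' medians were elac2, which processes tRNA ends, cmss1, hsd17b10, cox7c and mrpl18. Likeness was the sum of absolute differences from the 3 medians among entries averaging at least 4 CPM, and it ran from 0.06 to 0.08 for these 5. At least hsd17b10, cox7c and mrpl18 of them encode mitochondrial proteins, and the share of such genes among all entries was not counted. The log2 fold changes of the 5 genes with diclofenac ranged from -0.39 to -0.35 in the authors' deposited table. This is a description over 3 comparisons that share their Control.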

How the data were processed

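RNA from whole zebrafish bodies (12 libraries, 4 groups of 3, 48 h) was sequenced, per the labels' protocols, with a stranded kit and 150 bp paired reads at 40000000 to 80000000 reads a library. Kallisto, edgeR, limma and the build GRCz11 appear in the submitters' processing notes without versions or roles. Only the authors' comparison table was analysed. It holds, per the file headers, a log2 fold change and an average log2 CPM, a likelihood ratio (a score with no fixed range) and a p-value for each treatment, with the replicates combined by the authors. The log base was taken as 2 because the deposited averages sum to 1.01e+06 CPM. The deposited p-value equals the chi-square tail of the ratio on 1 degree of freedom to a relative difference of 9.86e-13, so it is unadjusted.

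Benjamini-Hochberg adjustment covered the 21622 entries averaging at least 1 CPM (Python 3.11.15, SciPy 1.17.1), two-sided, at a threshold of 0.05. Implied variance was the squared fold change over the likelihood ratio. Differences between treatments used the largest of an entry's 3 implied variances, doubled for the interaction, in a Wald test on 1 degree of freedom, which assumes equal spread in all groups. Over the members the largest variance was at the median 1.011 times the smallest. The Wald test was tested on simulated data with known differences. Without library values, depth per library enters through the deposited p-values alone. Related lists used the most abundant entry per symbol, and symbols that differ only in letter case were counted apart.

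Full statistics were given for the 2 members of each role with the smallest p, both copies of duplicated subunits and the catalytic subunits, and for up to 3 genes per related list with the smallest p. Further genes were named to complete a count, after their values were seen (nfe2l1a, nfe2l1b, keap1a, psme4a, psmg1, psmg2, psmg3, mxa, mxc, stat1a and the other members). Members and lists were chosen with earlier results of these data known. Alternatives were other filters, size limits, transcript classes, centring and adjustment.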

Additional observations from a re-analysis of the deposited data

Results flagged for a closer look

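Of the 24 proteasome entries averaging under 1 CPM, which no comparison above uses, 8, or 33.3%, had an unadjusted p under 0.05 with some treatment, and 6, or 25%, were higher than Control. Of all 13875 entries under 1 CPM, 18.4% had such a p and 10.9% were higher. All 6 are non-coding or unproductive transcript classes. In the authors' deposited table the retained-intron entry of psma8 had log2 fold changes of 6.39 with BaP, 7.72 with diclofenac and 4.53 with the mixture, all at such a p. The same held for the processed transcript of psmd1 with diclofenac (7.43) and the mixture (4.82), for the retained-intron entry of psmd13 with BaP (4.87) and diclofenac (5.21), and for the processed transcript of psmd8 with BaP (6.18) and diclofenac (6.06). A single treatment reached it for the retained-intron entry of psmd5, at 2.42 with BaP, and for the psmd11a entry of the nonsense-mediated decay class, at 3.99 with the mixture. Fitted fold changes of entries this close to 0 depend on the prior count of the authors' model and are no bounds. The protein-coding entries of the same genes had values between -0.65 and 0.29 with the same treatments. The other 2 of the 8 were lower than Control, the second psma5 identifier at -4.75 with both BaP and diclofenac, and the nonsense-mediated decay entry of psmc3 at -3.72 with the mixture.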

How the results depend on the processing

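The count of members called with diclofenac went from 0 to 1 (psmd4a) over entries averaging at least 5 CPM. The 14 members lower with diclofenac than with BaP became 9 without an abundance filter, and 0 at a change of at least 2-fold, 0 past the limit of 1.5 in the authors' column descriptions and 0 by the Benjamini-Yekutieli method. The size limits remove calls by construction. The Benjamini-Yekutieli method multiplies every Benjamini-Hochberg adjusted p by the same factor above 1, so it too can only remove calls. For the other losses the cause was not tested. The count was 16 at 5 CPM or more, 13 with 1 entry per symbol and 14 for protein-coding entries alone, after median-centring and with the median implied variance. The counts of members called in the other 5 comparisons were 0 under every alternative run. Median-centring left 27 members positive with the mixture in place of 31. Over these alternatives 31 calls of named members were lost and 1 was gained, and of the counts of related lists 312 stayed within 1.5 times and 72 moved. No paired analysis was possible because the table combines the replicates, and leaving out replicates was not run for the same reason. Precision is limited by 3 libraries per group and by the unknown spread within each group.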
